A study of Homo sapiens with 2 samples.

Results

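PRDM1 peaks were examined around 9 genes of the cyclin D, CDK inhibitor and RB-E2F pathway in U266 cells, an established line grown from a human multiple myeloma. The genes were CCND1, CCND2, CCND3, CDK6, CDKN1A, CDKN1B, CDKN2C, RB1 and E2F1. A peak counted for a gene when its summit lay within 50 kb of the gene body, with gene spans rounded to 1 kb on GRCh37. Of the 9669 peaks in the complete list, 7 met this rule, and they lay near 5 of the 9 genes. Genes with no peak were kept in every count.

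PRDM1 (BLIMP-1) is a transcriptional repressor with zinc fingers that turns B cells into plasma cells, which secrete antibody, and multiple myeloma is a tumour of plasma cells. The data came from chromatin immunoprecipitation and sequencing (ChIP-seq) of U266 with a PRDM1 antibody of clone C14A4, set against input DNA taken without antibody. There was 1 deposited library of each, so no value below has a replicate check, and intervals cover counting error only. Peaks were called on merged alignments, and variation between the merged parts could not be examined. The series title concerns the elongation factor ELL3 in B lymphocytes, and its design text names PRDM1 sites in myeloma lines; only these U266 libraries were analysed here.

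D-type cyclins bind the kinases CDK4 and CDK6, which phosphorylate the retinoblastoma protein and so release E2F factors that switch on genes for DNA replication. CDK inhibitors oppose this step: CDKN2C (p18) binds CDK4 and CDK6, while CDKN1A (p21) and CDKN1B (p27) bind several cyclin-kinase complexes. Overexpressed D-type cyclins are a common feature of myeloma, and U266 carries immunoglobulin heavy-chain enhancer sequence inserted near CCND1. Differentiation into plasma cells normally ends the cell cycle, and PRDM1 is known to repress genes of proliferation. ChIP-seq measures where a protein lies on DNA and does not measure the expression of the genes beside it.

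The strongest peak near the 9 genes, with 264 tags, lay 34.3 kb upstream of E2F1, the activating transcription factor at the end of the pathway. It was assigned to E2F1 by the 50 kb rule alone. A second peak, with 44 tags, lay at the 5′ end of E2F1. CCND1 had the next strongest peak, with 28 tags, inside the gene. CCND2, CDK6 and CDKN1A each had a single weak peak more than 25 kb upstream. CCND3, CDKN1B, CDKN2C and RB1 had none within 50 kb.

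**Figure D1:**
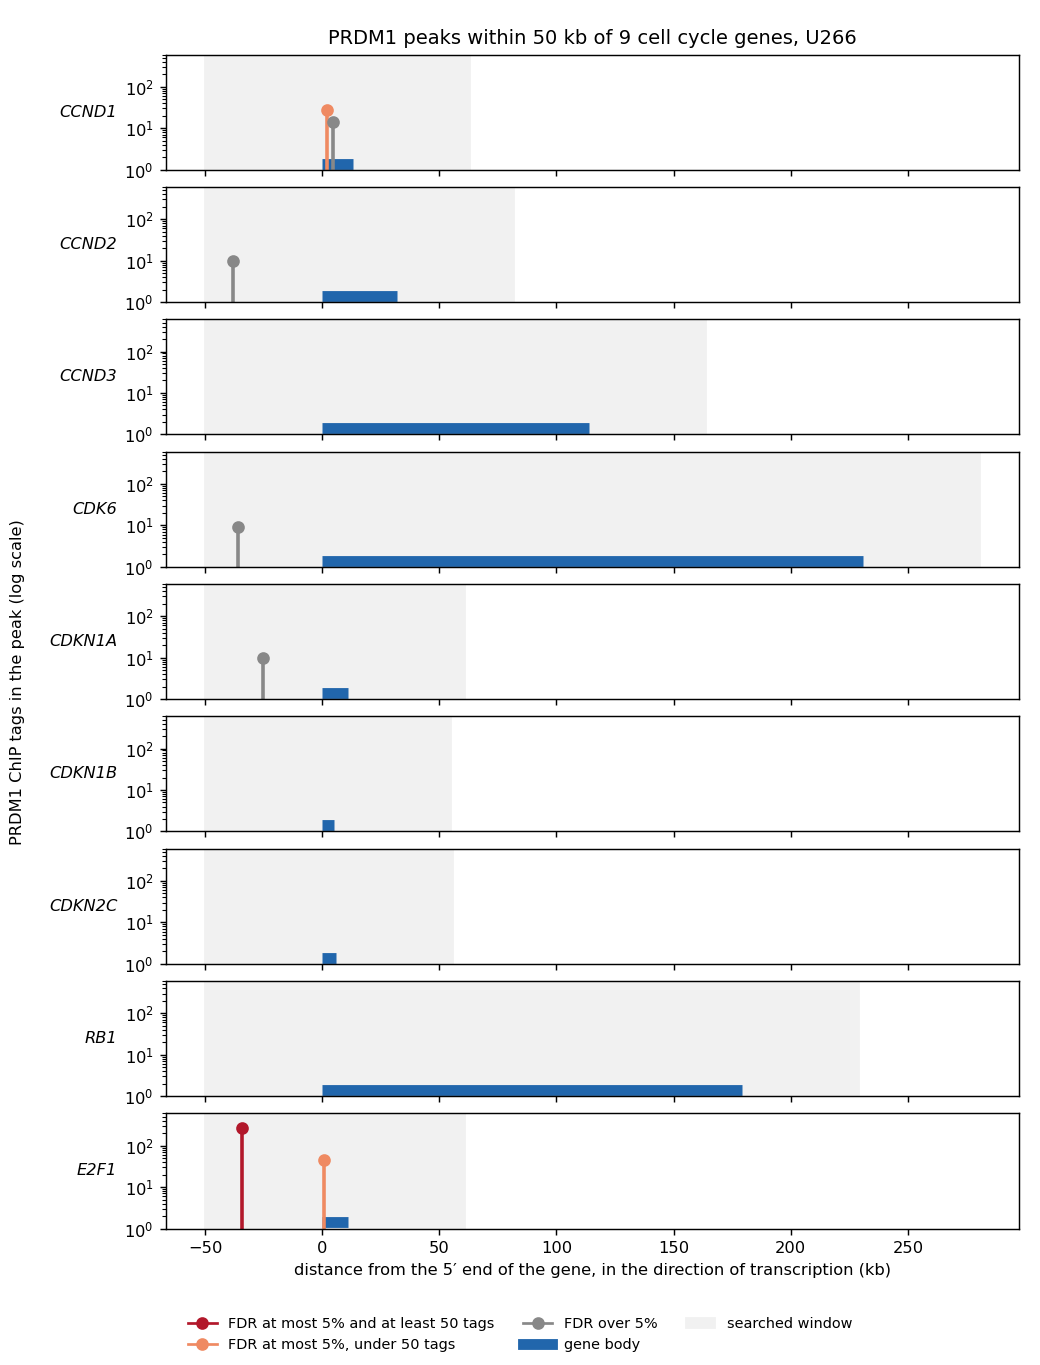
Each row is a gene, with the distance from its 5′ end in kb along the x axis and the PRDM1 ChIP tags of each peak on a log y axis. Stems mark peaks, coloured by the authors' false discovery rate (FDR) and tag limits, blue bars mark gene bodies and grey marks the searched window. The E2F1 row holds the tallest peak, with 264 tags, upstream of the gene, and 4 rows hold none.

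E2F1 lies on chromosome 20 from 32263 to 32274 kb on the minus strand. Its upstream peak, from 32307539 to 32309471, held 264 PRDM1 tags, 287 after scaling to the depth of the input and rounding down, against 27.1 expected from the input. That is 10.6 times the expected number (95% exact Poisson interval 9.36 to 12). The fold at the summit, the ratio of its height to the local background as the authors deposited it, was 41.1, and the FDR was 0. Its tag count exceeded that of 99.9% of all peaks and its fold that of 96.8%. The peak therefore stood higher in the list by tags than by fold. The input background there was 4.42 times the genome mean, the highest of the 7 peaks, and its part in the result was not tested beyond the ratio to input above.

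The upstream summit lay 34.3 kb from the E2F1 5′ end. In RefSeq gene order, PXMP4, which encodes a peroxisomal membrane protein, is the next coding gene on that side, followed by ZNF341, a zinc finger transcription factor. Which of these genes the peak lies in or closest to was not determined, because no annotation of the peaks' build was used here. Assignment of this peak to E2F1 rests on the 50 kb rule alone.

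A second E2F1 peak, from 32272918 to 32273864, lay at the 5′ end of the gene, with its summit about 1 kb inside it. It held 44 PRDM1 tags, 47 when scaled, against 5 expected from the input, a ratio of 9.4 (6.83 to 12.6). Its fold was 23.7, its FDR was 0, and 88.6% of peaks held fewer tags. It was the closest to a 5′ end of all 7 peaks, and it missed the authors' filtered list only through the minimum of 50 tags. Per expected tag, both E2F1 peaks were alike within counting error, although the upstream peak held more tags over a wider region, 1933 bp against 947 bp.

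Sequence upstream of the start was read for genes with a summit within 1 kb of their 5′ end, which show what lies beside a PRDM1 peak. E2F1 is such a gene, and RBL1, the gene of the RB relative p107, is another from the wider pathway list described further on. The RBL1 peak there was weak, with 12 tags at an FDR of 26.6%. CDKN2B of that list also met this rule, with a peak of 35 tags at an FDR of 0.09%. Its sequence is not shown, because no RefSeq window lay at its outer start. The 250 bases before the start are given from RefSeq (GRCh38.p14), 5′ to 3′ in the direction of the gene, at chr20:33686386-33686635 (minus strand) for E2F1 and chr20:37095998-37096247 (minus strand) for RBL1. Capitals mark GAAAG, the core of the PRDM1 motif, its longer form GNGAAAG, which contains GAAAG, and the E2F motif TTTNGCGC, each searched on both strands.
E2F1: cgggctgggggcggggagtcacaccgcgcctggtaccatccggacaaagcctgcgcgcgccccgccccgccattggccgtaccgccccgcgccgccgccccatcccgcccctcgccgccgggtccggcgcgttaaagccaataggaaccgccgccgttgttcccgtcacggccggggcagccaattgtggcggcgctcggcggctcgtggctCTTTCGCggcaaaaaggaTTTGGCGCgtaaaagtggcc
RBL1: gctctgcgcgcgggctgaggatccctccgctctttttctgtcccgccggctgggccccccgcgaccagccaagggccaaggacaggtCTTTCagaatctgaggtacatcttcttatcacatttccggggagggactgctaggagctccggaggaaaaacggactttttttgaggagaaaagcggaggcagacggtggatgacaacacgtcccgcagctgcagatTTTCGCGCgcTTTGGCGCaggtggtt

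In E2F1 the PRDM1 core lay on the opposite strand, starting 38 bases before the gene start, and the E2F motif started 20 bases before it. In RBL1 the core started 163 bases before the start, and E2F motifs started at 26 and 16 bases. GAAAG is short and was present in 48.9% of 35116 RefSeq windows of the same length, GNGAAAG in 19.4% and TTTNGCGC in 1.51%. Of the 9 genes, 7 had a window, 12 windows in all, some at more than 1 start. GAAAG was in 3 of these windows, those of CCND3, E2F1 and RB1, while GNGAAAG and TTTNGCGC were each in 1, that of E2F1. These letters describe the windows. The peaks are on another build and the gene spans are rounded, so whether the E2F1 or RBL1 peak covers its window was not determined.

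CCND1, the gene of cyclin D1, lies on chromosome 11 from 69456 to 69469 kb on the plus strand, and both its peaks were inside the gene. The stronger, from 69457205 to 69458268, had its summit about 2 kb past the 5′ end. It held 28 PRDM1 tags, 30 when scaled, against 4.47 expected from the input, a ratio of 6.71 (4.46 to 9.7). Its fold was 13.1 and its FDR 0.1%, and 77.5% of peaks held fewer tags. The weaker, from 69460327 to 69460976, had its summit about 5 kb past the 5′ end. It held 14 tags, 15 when scaled, against 2.6 expected, a ratio of 5.77 (3.15 to 9.68), and its FDR of 6.48% was just over the limit of 5%. CCND1 and E2F1 were the 2 genes of the 9 with more than 1 peak, and the 2 with a peak inside the gene. The input background at the CCND1 peaks was 1.33 and 1.26 times the genome mean.

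CCND2, the gene of cyclin D2, had 1 peak on chromosome 12 from 4343492 to 4344004, with its summit 38.2 kb upstream of the gene. It held 10 PRDM1 tags, 10 when scaled, against 1.63 expected from the input, at an FDR of 26.8%. CCND3, the gene of cyclin D3, had no peak in its window of 214 kb. The nearest summit lay 68.3 kb away on the upstream side, with 13 tags and an FDR of 6.65%. Among the D-type cyclins, CCND1 therefore had the only peak at an FDR of at most 5%.

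CDK6, the kinase partner of the D-type cyclins, had 1 peak on chromosome 7 from 92501002 to 92501300, with its summit 36.2 kb upstream. It held 9 PRDM1 tags, the lowest number in the list, against 1.34 expected from the input, at a fold of 6.43 and an FDR of 29.1%. The deposited fold times the background should give a summit height in whole tags, and for this peak it gave 5.77, so its ratio of 6.7 (3.07 to 12.7) is less certain than the others. The CDK6 window was the widest of the 9, at 331 kb, and 67.6% of windows of that width on chromosome 7 held a peak. A peak in so wide a window was thus common on that chromosome.

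Among the CDK inhibitors, CDKN1A had 1 weak peak, on chromosome 6 from 36618167 to 36618767, with its summit 25.4 kb upstream. It held 10 PRDM1 tags, 10 when scaled, against 1.9 expected from the input, a ratio of 5.25 (2.52 to 9.66), at an FDR of 43.3%. CDKN1B had no peak, and its nearest summit lay 359.9 kb away. CDKN2C had none either, with the nearest at 182.7 kb. No inhibitor among the 3 had a peak at an FDR of at most 5%.

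RB1, whose product holds E2F factors inactive, had no peak in a window of 279 kb on chromosome 13. At this width, 32.2% of windows on chromosome 13 and 49.8% of windows over the genome held a peak. The nearest summit lay 80.6 kb beyond its 3′ end, in a peak from 49136217 to 49137094. That peak held 32 PRDM1 tags, 34 when scaled, against 2.78 expected, a ratio of 12.2 (8.36 to 17.3), at a fold of 31.6 and an FDR of 0.09%. Its ratio to input was higher than that of any of the 7 counted peaks, which reached 10.6, although its interval overlapped all of theirs. Its fold lay below that of the upstream E2F1 peak, 41.1, and above those of the other counted peaks, which reached 23.7. The background behind the ratio of 12.2 equalled the genome mean, while that at the upstream E2F1 peak was 4.42 times the genome mean.

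The limit of 50 kb set which peaks were counted. The peaks just inside it were those of CCND2 at 38.2 kb, CDK6 at 36.2 kb and E2F1 at 34.3 kb from the gene body. Those just outside it were at CCND3 (68.3 kb), RB1 (80.6 kb) and CDKN1A (92.2 kb), the last with 18 tags and an FDR of 2.45%.

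**Figure D2:**
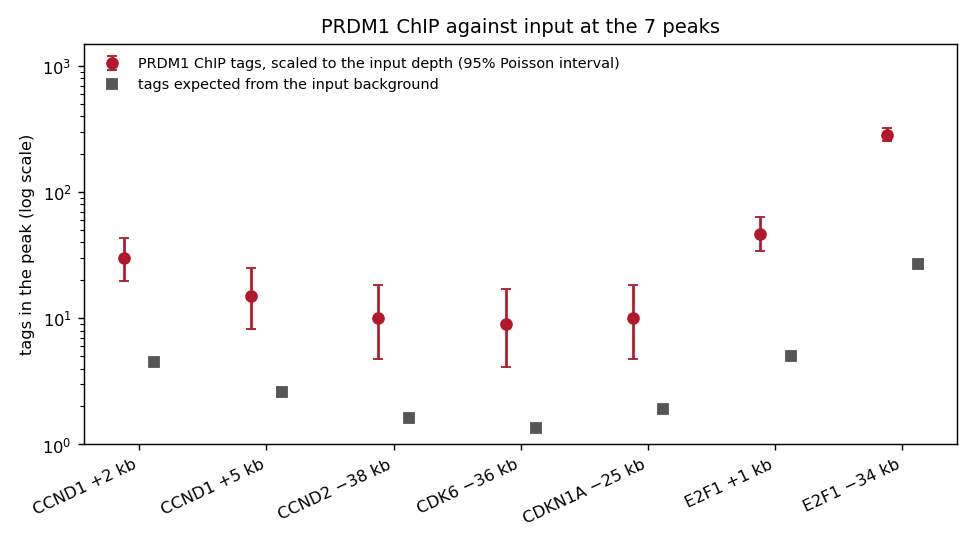
For each of the 7 peaks, named by gene and distance of the summit from the 5′ end, circles give the scaled PRDM1 ChIP tags with 95% exact Poisson intervals and squares the tags expected from the input, on a log axis. ChIP tags were 5.25 to 10.6 times the expected tags, and the E2F1 peaks had the 2 highest ratios.

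Over all 7 peaks the ratio of tags to expected tags had a median of 6.7, from 5.25 to 10.6, and a median of 14 tags. The complete list had a median ratio of 5.54 and a median of 15 tags. Both E2F1 peaks lay well above these medians, at 264 and 44 tags, and the other 5 peaks held 9 to 28 tags. An FDR of at most 5% was met by 3 of the 7 (42.9%), where 43.5% of the complete list met it. At least 50 tags as well were held by 1 of the 7 (14.3%), where 9.17% of the complete list did so. Both shares rest on few peaks and lie near those of the list.

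**Figure D3:**
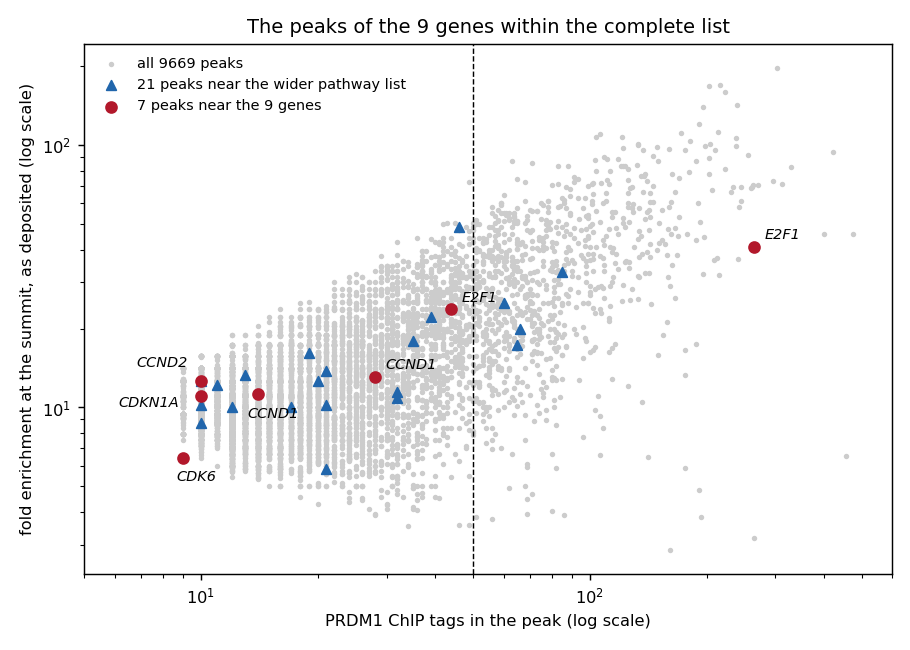
Each point is a peak, with PRDM1 ChIP tags on a log x axis and the authors' fold enrichment at the summit on a log y axis; red circles are the 7 peaks, blue triangles the 21 peaks of the wider pathway list, grey all 9669 peaks, and the dashed line marks 50 tags. The upstream E2F1 peak at 264 tags stands apart from the other 6, which hold 9 to 44 tags.

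By gene, 5 of 9 had a peak, against 27.3% of windows of 113 kb, the median width for the 9 genes, laid end to end over the genome. At an FDR of at most 5%, 2 of 9 genes had a peak, against 13.4% of such windows. With at least 50 tags as well, 1 of 9 had a peak, against 3.22%. Taking windows of each gene's own width, the genome would give on average 3.1, 1.61 and 0.41 genes of 9 at these 3 levels. These windows include stretches without genes, so they are a background for the genome and not for genes. Peaks near the 9 genes numbered 4.66 per Mb (95% exact Poisson interval 1.87 to 9.6), against 3.3 per Mb over the complete list, which lies within that interval.

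**Figure D4:**
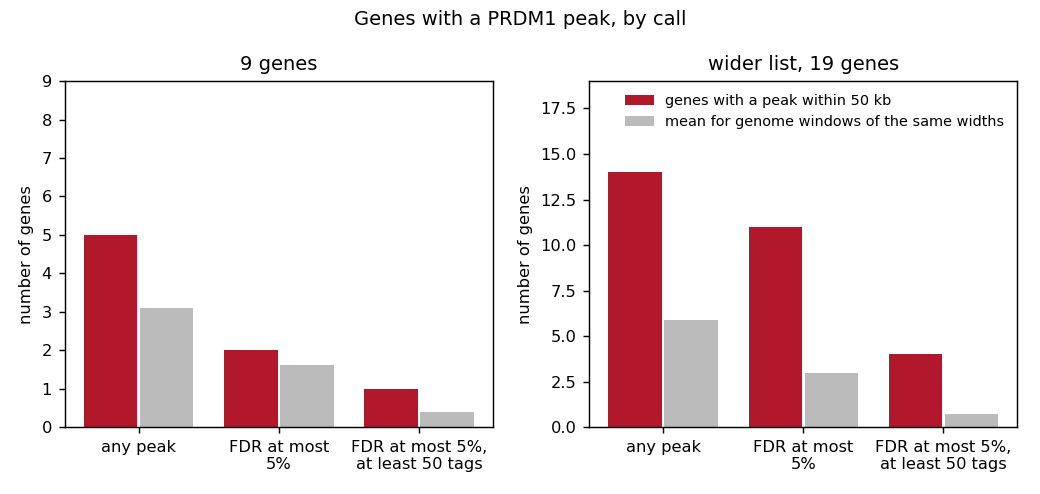
Bars give the number of genes with a peak within 50 kb (red) and the mean number that genome windows of the same widths give (grey), for the 9 genes on the left and the wider list of 19 on the right, at 3 levels of stringency. For the 9 genes the bars are 5 against 3.1, 2 against 1.61 and 1 against 0.41.

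Among the 9 genes, E2F1 lay closest to a peak of the filtered list. From the 5′ end of E2F1 the nearest peak of the filtered list lay 34.3 kb away. For the other 8 genes it lay from 516.4 kb (CCND3) to 7240.8 kb (CDKN2C). The median over the 9 genes was 1252.3 kb, against 1837 kb from positions spaced every 100 kb along the genome. Short distances were not particular to E2F1. In the wider list described below, the nearest filtered peak lay 2.5 kb from the 5′ end of CDKN2D, 35 kb from E2F6 and 45.7 kb from E2F2. The median over the 19 genes of that list was 2138.5 kb. To a peak of any strength the median was 38.2 kb for the 9 genes, against 141.2 kb for such positions. The 5′ ends of CDKN1B, RB1 and CDKN2C lay farther from any peak than the median position, at 359.9, 259.6 and 188.7 kb. From the body of RB1 the nearest peak lay 80.6 kb away. The evenly spaced positions include stretches without genes, so they are a background for the genome and not for genes.

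**Figure D5:**
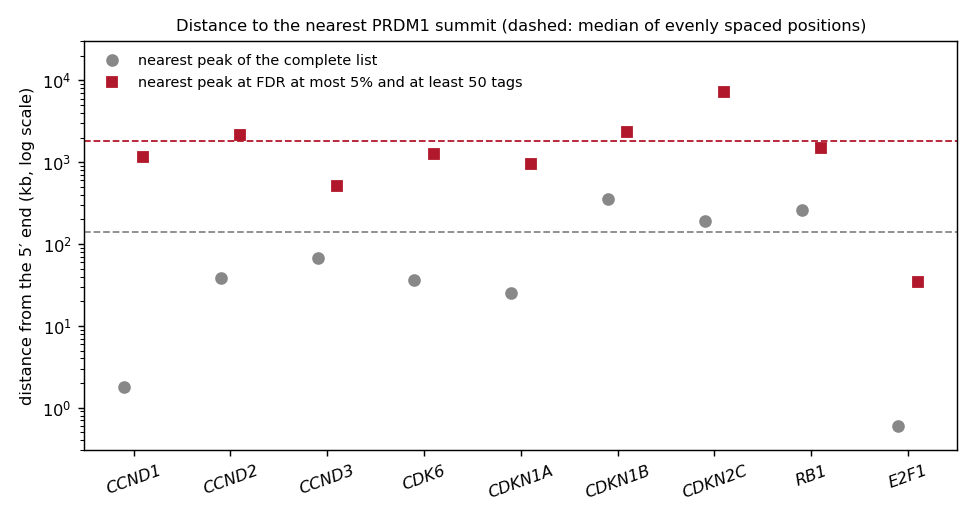
For each of the 9 genes, the log y axis gives the distance in kb from the 5′ end to the nearest PRDM1 summit of the complete list (grey circles) and of the filtered list (red squares). Dashed lines are the medians from evenly spaced positions, 141.2 and 1837 kb; E2F1 lies lowest on both measures.

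Other genes of the pathway were counted in the same way, for a list of 19 kinases, cyclins, inhibitors, RB relatives and E2F factors with their partners. Of these, 14 had a peak within 50 kb, against 28.8% of windows of 121 kb, the median width for this list. At an FDR of at most 5% there were 11, against 14.1%, and with at least 50 tags as well 4, against 3.41%. The neighbours CDKN2A and CDKN2B are both among the 14 and the 11, and at an FDR of at most 5% through the same 3 peaks. Windows of each gene's own width would give 5.88, 2.96 and 0.73 genes on average. These windows include stretches without genes, and the list was chosen with earlier results of these data known. The counts are therefore a description only, and enrichment was not tested. The list held 21 different peaks, 8.29 per Mb (5.13 to 12.7), and the median ratio to expected tags was 5.66.

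Of the 4 genes with a peak that passed the authors' filter, 3 were E2F genes, which make up 6 of the 19. E2F6, a repressor of the family, had a peak 35 kb upstream with 85 PRDM1 tags, 92 when scaled, against 9.89 expected. E2F4, the main E2F of resting cells, had a peak 47.5 kb downstream with 66 tags, and E2F2, an activator, had a peak 45.7 kb upstream with 60 tags. Each of these 3 peaks had an FDR of 0, and each lay outside the gene. With 10 kb around the gene body, 1 gene of the wider list had a filtered peak, and it was CDKN2D and not an E2F gene. In RefSeq order the next coding genes on the side of the peak were GREB1 for E2F6, ELMO3 and TMEM208 for E2F4, and ID3 and RPL11 for E2F2, and which gene each peak lies in was not determined. E2F2 also had a peak with 32 tags 24.6 kb upstream. E2F8, a repressor of the family, had a peak with 21 tags inside the gene at an FDR of 2.18%. E2F3 and E2F7 had peaks only at FDRs over 5%.

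Among the inhibitors, CDKN2D (p19) had a peak inside the gene, on chromosome 19 from 10676642 to 10678477, with 65 PRDM1 tags, 70 when scaled, against 9 expected from the input, a ratio of 7.78 (6.01 to 9.92). It was the only peak of the filtered list inside a gene of either list. CDKN2A (p16) and CDKN2B (p15) are neighbours and shared 4 peaks, 3 of them at an FDR of at most 5%. The strongest of these, on chromosome 9 from 22032730 to 22033743, lay outside both genes. Its summit was 24.3 kb upstream of CDKN2B and 38.3 kb upstream of CDKN2A. It held 46 tags, 50 when scaled, against 3.21 expected from a background equal to the genome mean, a ratio of 15.6 (11.4 to 20.8). Another, with 35 tags, had its summit 0.7 kb from the 5′ end of CDKN2B. CDKN1C (p57) had none within 50 kb.

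Of the kinases, cyclins and RB relatives, CCNE1, the gene of cyclin E1, had a peak about 3 kb inside the gene with 21 tags at an FDR of 1.03%. CDK2, the partner of cyclin E, had a peak 39.2 kb upstream with 19 tags (FDR 0.62%). CDC25A, a phosphatase that activates CDK2, had a peak 44.9 kb downstream with 39 tags (FDR 0.09%). In RefSeq order the next coding genes on the side of the peak were PMEL and DGKA for CDK2, and MAP4 and DHX30 for CDC25A. Which gene each of these peaks lies in was not determined. RBL1 had a peak with 32 tags inside the gene (FDR 0.19%) and another with 12 tags at its 5′ end (FDR 26.6%). CDK4 had a peak at an FDR of 27.8% only, while CCNA2, RBL2, TFDP1 and TFDP2 had none.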

How the data were processed

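The submitters' processing notes name CASAVA 1.8.2, MACS 1.4 and Bowtie 0.12.7. Peaks were called with MACS 1.4.1 on 1 merged PRDM1 and 1 merged input alignment, per the file headers. After removal of duplicates 7854466 PRDM1 and 8556458 input tags remained, so a weak peak rests on few tags. Per the file headers, each peak's tag count is unnormalized. The score is −log10 p times 10, the fold is the ratio of summit height to local background, and the FDR is a percent, all as the authors deposited them and used here only to describe or filter peaks. The filtered list is the 887 peaks with 50 tags or more and an FDR no higher than 5%; recomputing it gave the same 887.

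The genome build is not given in the sources used here; coordinates are taken as GRCh37, the build of the rule, and are 1-based. Input-expected tags were solved from the score with PRDM1 tags multiplied by 1.09 and rounded down. This gave whole summit heights within 0.06 tags for 98.7% of 9667 peaks; 2 peaks with a fixed score of 3100 were left out. On simulated data 100% of 391 backgrounds were recovered within 1%, which checks the solving only. Intervals are exact 95% Poisson intervals on the PRDM1 tags, with the expected tags taken as fixed. At some peaks, such as that beyond the 3′ end of RB1, the expected tags equal the genome mean over the peak width.

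The spans of the 9 genes come from the rule. Those of the 19 further genes were typed in kb from general knowledge of GRCh37, and all agreed in chromosome and within 1 kb in length with RefSeq (GRCh38.p14). Their positions along the chromosome were not checked, and the distances given for these genes depend on them. CDKN2C is 6 kb long in the rule and 13.9 kb in RefSeq. Strands came from general knowledge and matched RefSeq where it had a window. The members and lists were chosen with earlier results of these data known. All 9 genes were named, and a further gene was described where it had a peak at an FDR of at most 5%. Background windows and evenly spaced positions ran from the first to the last peak of each chromosome. No test between groups was possible with 1 library of each kind. Python 3.11.15, pandas 2.3.3, numpy 2.4.6 and scipy 1.17.1 were used.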

Additional observations from a re-analysis of the deposited data

How the results depend on the processing

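With 10 kb around the gene body in place of 50 kb, there were 3 peaks, 0 of them in the filtered list, and 2 genes with a peak and 0 with a filtered peak; in the wider list 6 genes had a peak and 1 a filtered peak. Taking the complete list only to an FDR of at most 5% left 3 peaks, and to 20% left 4 peaks near 2 genes. With at least 25 tags, 3 peaks near 2 genes passed the filter, and 8 genes of the wider list did; with at least 100 tags, 0 genes of the wider list did. At 100 kb, 4 of the 9 genes had a peak at an FDR of at most 5%. These shifts follow from the limits themselves, which admit fewer or more peaks. The other counts, with any base of the peak inside the window, with the start in place of the gene body, or with an FDR of at most 1%, stayed within 1.5 times. The median ratio to expected tags was 6.7 and ranged from 5.98 (rounded to the nearest) to 9.4 (FDR of at most 5%). Lengthening CDKN2C gave 7 peaks near 5 genes. Separately, leaving out the peak with the most tags gave a median ratio of 6.43. Both settings were added after seeing the data.

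No paired analysis was possible because PRDM1 and input had 1 library each. At this depth, no peak within 50 kb does not show that PRDM1 is absent there, since the weakest called peaks held 9 tags.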
